A study of Mus musculus with 9 samples.

Results

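The genes described here are 10 members of the mouse fibroblast growth factor (FGF) pathway, 6 ligands (Fgf3, Fgf4, Fgf5, Fgf7, Fgf8 and Fgf10) and 4 receptors (Fgfr1, Fgfr2, Fgfr3 and Fgfr4). They were taken by their annotated symbol, which is carried by 18 of the 45281 probes on the array, and 19057 genes were named in all. Their RNA was measured in 3 endoderm-like cell lines, with 3 arrays for each line. The END2 line goes back to the P19 embryonal carcinoma. The PYS2 line came from tumor cells of strain 129, and the XEN line (xen10 in the sample titles) from blastocysts of strain ICR. All lines were kept in medium with serum, but END2 in a DMEM/F12 mixture and the others in high glucose DMEM, so that line and medium cannot be told apart in the comparisons with END2. Each group is 1 cell line, and each line is from its own strain or tumor. The labels number the arrays of a line as replicates but do not say that they came from separate cultures, and the p-values rest on the spread of these arrays alone, which may be technical.

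FGF ligands are secreted proteins that bind receptor tyrosine kinases at the cell surface together with heparan sulfate. The receptors signal through docking proteins and Ras to the kinase ERK, and ERK switches on transcription factors of the ETS family as well as inhibitors of the pathway itself. In the blastocyst, Fgf4 made by the inner cell mass is known to direct cells to primitive endoderm, the tissue that gives rise to visceral and parietal endoderm.

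On this array a probe was called detected where its detection p-value, the chance of such a signal among control probes, was under 0.01. A gene was called present in a line where 2 or 3 of its arrays detected a probe of that gene. Signals are intensities on a linear scale, and each signal of an FGF probe is the mean over 21 to 67 beads. Levels are log2 values after background correction and normalization between arrays, and are compared between lines for 1 probe but not between probes. The faintest detected signal lay between 37.6 and 80.5 from array to array, and the lowest detected level between 5.21 and 5.64. The median signal of all probes was 21.3 to 30.9 on 8 arrays and 43.5 on XEN replicate 2, so that raw signals on that array read high. END2 replicate 3 stood apart from the other END2 arrays, at distances of 72.1 and 78.5 over all tested probes, against 35 between END2 replicates 1 and 2 and 46.2 to 61 within PYS2 and XEN. Of 7 markers of primitive endoderm, all were present in PYS2 and XEN and 5 in END2, where Sox7 and Sox17, transcription factors of the lineage, were not detected on any array. Their summed signal was 6620 to 10200 on the END2 arrays, 22800 to 28500 in PYS2 and 21200 to 43100 in XEN. Gata6 went against the other markers in END2 against PYS2, at 4427 to 6389.9 in END2 and 2862.8 to 3460.8 in PYS2 (log2 difference 0.73, adjusted p = 0.00283). Dab2 read 1937.9 to 3315.4 in END2, but Gata4 read 63.8 to 108.2, Foxa2 82 to 89.6 and Pdgfra 73.4 to 260.3. By qRT-PCR the authors found Gata6 in END2 but not Gata4, Foxa2 or Pdgfra. They found Foxa2 in PYS2 alone, whereas the array detected it on all 3 XEN arrays, at 268.9 to 788.1. Of 6 markers of pluripotent cells only Nanog (in END2) and Utf1 (in XEN) were present, and of 6 trophoblast markers only Cdx2 (in PYS2).

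Of the 10 FGF genes, 5 were present in END2 (Fgf5, Fgf8, Fgf10, Fgfr2 and Fgfr3), 3 in PYS2 (Fgfr2, Fgfr3 and Fgfr4) and 4 in XEN (Fgf3, Fgf10, Fgfr2 and Fgfr3). Over all named genes, 44.2% were present in END2 and 41.5% in each of PYS2 and XEN. No ligand of the 6 was present in PYS2. Fgf4, Fgf7 and Fgfr1 were not detected on any of the 9 arrays. Fgfr2 and Fgfr3 were the receptors present in all lines. With detection required on all 3 arrays, END2 kept 3 FGF genes, without Fgf8 and Fgfr3, and PYS2 kept 2, without Fgfr4.

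**Figure D1:**
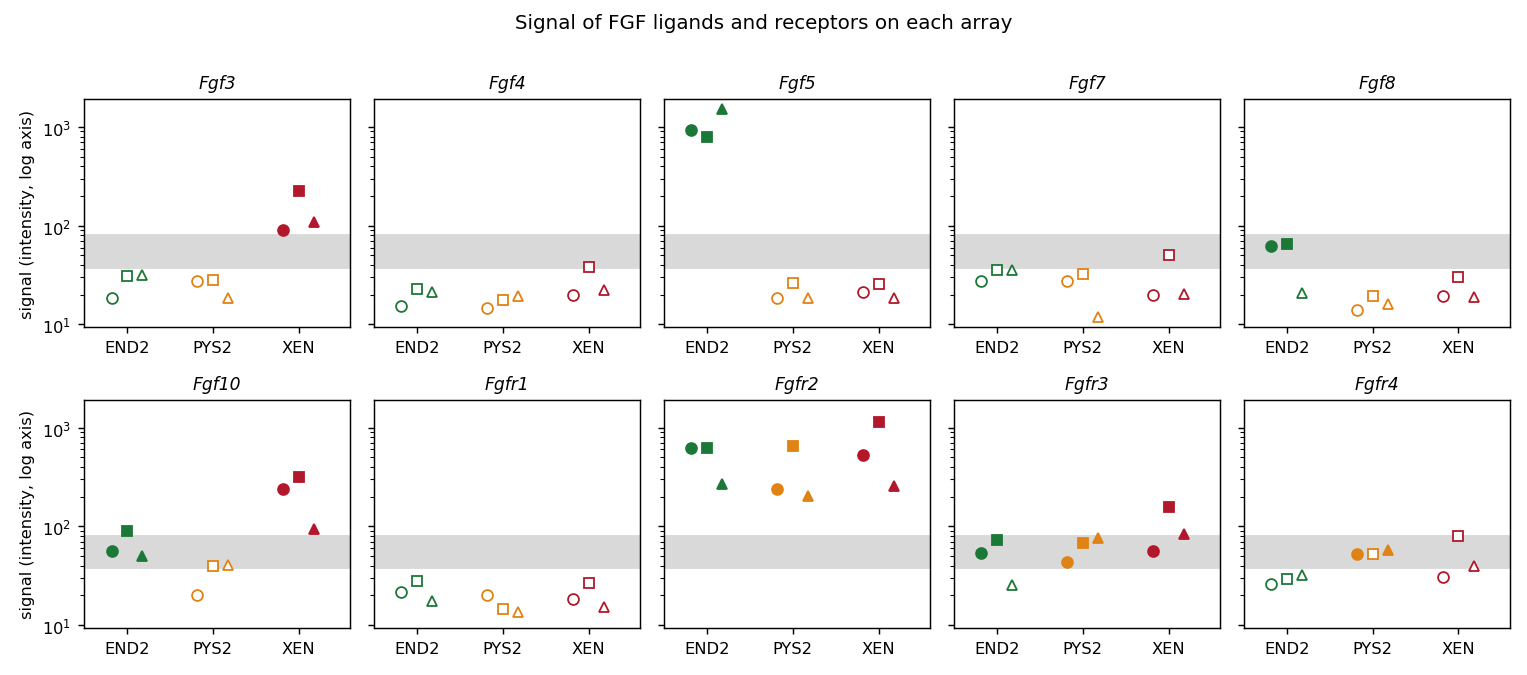
Signal of each FGF gene on each of the 9 arrays (linear intensity on a log axis), for the probe with the highest mean level. Circles, squares and triangles are replicates 1, 2 and 3, filled where detected, and the gray band spans the faintest detected signals of the arrays (37.6 to 80.5). Fgf5 stands above the band in END2 alone, Fgf3 in XEN alone, and Fgfr2 in all lines.

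Of the 10 genes, Fgf5, a ligand known as a marker of the early epiblast, gave the largest difference between lines. Its single probe read 924.8, 789.1 and 1506.7 on the END2 arrays. It read 18.4, 26.2 and 18.4 in PYS2 and 21.4, 25.4 and 18.7 in XEN, and was not detected on any array of those lines. The level in END2 was 9.92 ± 0.71 (SD, n = 3), against 4.48 ± 0.0432 in PYS2 and 4.49 ± 0.125 in XEN. The log2 difference was 5.44 (SE 0.284) from PYS2 (adjusted p = 1.8e-08, limma) and 5.43 from XEN (adjusted p = 2.28e-08). Where a line gave no detected signal, its true level has only an upper bound, and the fold is given as a lower limit, the mean level of the brighter line against the faintest detected level on each array of the dimmer line. By this measure Fgf5 in END2 exceeded PYS2 by at least 20.3-fold and XEN by at least 21-fold. The END2 array with the highest value was replicate 3, and without it the differences were 5.04 and 5.03.

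Fgf3 and Fgf10 had their highest levels in XEN. Fgf3, a ligand known for its role in forming the inner ear, read 90.4, 222.1 and 108.8 on the XEN arrays and was detected on all of them. It read 18.5, 31.2 and 31.9 in END2 and 27.4, 28.1 and 18.5 in PYS2, with no detection. Its XEN level of 7.07 ± 0.078 (SD, n = 3) was the least variable of the FGF genes present in XEN. The log2 difference of END2 minus XEN was -2.45 (SE 0.174, adjusted p = 3.14e-07), and XEN exceeded END2 by at least 3.35-fold. PYS2 minus XEN was -2.46 (adjusted p = 8.36e-07), an excess of XEN of at least 2.83-fold. END2 and PYS2 could not be ordered for Fgf3, since neither line gave a detected signal.

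Fgf10 is a ligand of mesenchyme that is needed for lung and limb outgrowth. Of its 3 probes, 2 were present in a line. The one with the higher mean level over all arrays read 239.4, 316.1 and 94.1 in XEN and 55.6, 89.4 and 50.1 in END2. It was detected on all 6 of those arrays. It read 19.9, 39.6 and 40.7 in PYS2, with no detection. Its level was highest in XEN (7.64 ± 0.734), lower in END2 (5.66 ± 0.322) and lowest in PYS2 (4.91 ± 0.385, SD, n = 3 each), and the arrays of the 3 lines did not overlap. XEN exceeded END2 by 3.96-fold (log2 difference END2 minus XEN -1.99, adjusted p = 0.000407) and PYS2 by at least 4.2-fold (-2.74, adjusted p = 6.93e-05). END2 and PYS2 differed by 0.75 (SE 0.335), which did not pass the test (adjusted p = 0.0794) but did without XEN replicate 1 or 3 (adjusted p = 0.0341 and 0.0423). The other present probe read 285.2, 375 and 100.8 in XEN and 56.7, 74.4 and 37.1 in END2. Its fold of XEN over END2 was 5.52 (adjusted p = 6.97e-05) and of XEN over PYS2 at least 4.85 (adjusted p = 1.26e-05). For this probe END2 also exceeded PYS2, by 0.89 (adjusted p = 0.0403), close to the faintest detected level, and no fold is given. The last Fgf10 probe stayed between 9.4 and 64.6 and was not detected on any array. XEN replicate 3 was the lowest XEN array for both present probes and still lay above every END2 array in level.

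The stretch before the annotated start of Fgf3, Fgf5 and Fgf10 is shown because these 3 ligands carried the largest differences between the lines, Fgf5 toward END2 and Fgf3 and Fgf10 toward XEN. Each is the 250 bases that precede the start of the gene in RefSeq (GRCm38.p6, plus strand), for Fgf3 chr7:144838362-144838611, for Fgf5 chr5:98253934-98254183 and for Fgf10 chr13:118714449-118714698. Capitals mark matches to a GATA motif (AGATAA) or a forkhead motif (TGTTTAC) on either strand, chosen after the sequences were seen for the families of the endoderm factors Gata4, Gata6 and Foxa2.
Fgf3: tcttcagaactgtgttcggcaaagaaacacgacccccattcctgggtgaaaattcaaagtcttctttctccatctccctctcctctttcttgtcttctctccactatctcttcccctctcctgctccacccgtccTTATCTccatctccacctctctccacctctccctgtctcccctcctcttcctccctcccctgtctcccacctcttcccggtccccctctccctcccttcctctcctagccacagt
Fgf5: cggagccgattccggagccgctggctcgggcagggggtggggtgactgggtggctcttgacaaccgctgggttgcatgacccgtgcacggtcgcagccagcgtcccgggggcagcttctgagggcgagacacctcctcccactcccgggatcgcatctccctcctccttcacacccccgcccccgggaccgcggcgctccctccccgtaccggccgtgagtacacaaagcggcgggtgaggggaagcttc
Fgf10: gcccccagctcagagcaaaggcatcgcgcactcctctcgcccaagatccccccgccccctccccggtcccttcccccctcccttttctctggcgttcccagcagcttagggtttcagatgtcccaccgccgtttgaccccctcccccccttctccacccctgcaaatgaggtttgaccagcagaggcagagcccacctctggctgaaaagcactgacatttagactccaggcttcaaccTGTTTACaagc
In Fgf3 the reverse form of the GATA motif, TTATCT, began 115 bases before the start, and no forkhead motif was found. In Fgf10 the forkhead motif began 11 bases before the start, and no GATA motif was found. The Fgf5 stretch held neither, nor a SOX motif (ATTGT) on either strand, which was also missing from the other stretches. Over 32851 promoters of the same length, 9.99% held the GATA motif, 3.17% the forkhead motif and 27.7% the SOX motif. The GC share was 70.8% for Fgf5, 61.2% for Fgf10 and 55.2% for Fgf3. A match describes these letters and no binding was measured.

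Fgf8, a ligand needed for cell migration at gastrulation, was seen near the limit of detection in END2. Of its 2 probes, 1 read 63 and 65.6 on END2 replicates 1 and 2 and 20.7 on replicate 3, where it was not detected. It read 14 to 19.2 in PYS2 and 19.1 to 29.9 in XEN, with no detection. The END2 level of 5.17 ± 0.606 exceeded PYS2 (4.39 ± 0.0159) by 0.78 (SE 0.251, adjusted p = 0.0207) and XEN (4.48 ± 0.0554) by 0.69 (adjusted p = 0.0362). No fold is given, because the END2 mean lay below the faintest detected levels of the other lines. END2 replicate 3 overlapped the XEN arrays, and without it the differences were 1.13 (adjusted p = 6e-05) and 1.04 (adjusted p = 0.000114). The call against PYS2 was lost without END2 replicate 1 or 2 (adjusted p = 0.0896 and 0.0851) and without any 1 of the PYS2 arrays (0.0502 to 0.0518). The call against XEN was lost without any 1 array other than END2 replicate 3 and PYS2 replicate 1 (adjusted p = 0.051 to 0.143). The second Fgf8 probe read 9 to 22.8 and was not detected.

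Fgf4 and Fgf7 were not detected in any line. Fgf4, the ligand of the inner cell mass, read 15.2 to 22.8 in END2, 14.7 to 19.4 in PYS2 and 19.7 to 38.2 in XEN. Fgf7, the keratinocyte growth factor, read 27.3 to 36 in END2, 11.9 to 32.4 in PYS2 and 19.8 to 50.3 in XEN. The highest value of each was on XEN replicate 2, the array with the highest median signal. Neither gene was tested. Each is read by 1 probe, so that a low level and a poorly reading probe cannot be told apart.

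**Figure D2:**
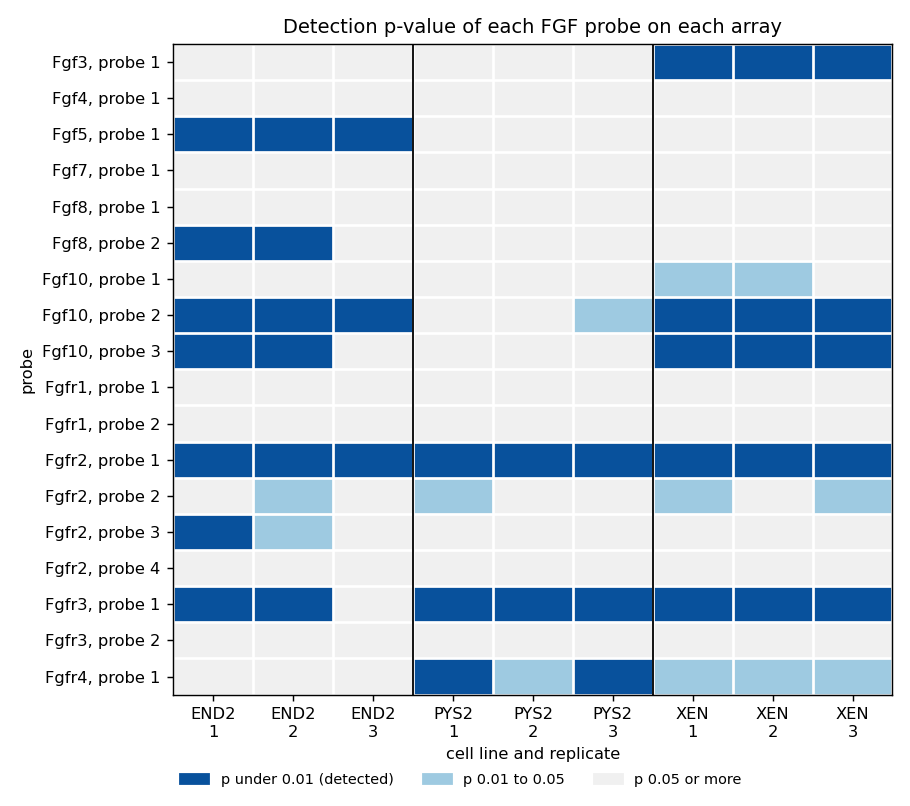
Detection of all 18 FGF probes (vertical axis) on the 9 arrays (horizontal axis, by line and replicate). Dark cells have a detection p-value under 0.01, light blue cells 0.01 to 0.05 and gray cells 0.05 or more. Only Fgfr2 probe 1 was detected on all 9 arrays, and Fgf4, Fgf7 and both Fgfr1 probes were detected on none.

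Among the receptors, Fgfr2 was detected on every array. It is a receptor of early primitive endoderm and, in its epithelial form, the receptor for Fgf3, Fgf7 and Fgf10. Its brightest probe read 617, 620.7 and 266.7 in END2, 236.6, 650.8 and 203.6 in PYS2 and 531.3, 1148.8 and 255.5 in XEN. The lines overlapped, and replicate 3 was the lowest array of each line. Mean levels with SD over 3 arrays were 8.76 ± 0.446 for END2, 8.41 ± 0.731 for PYS2 and 9.15 ± 0.657 for XEN. None of the differences passed the test, in which the replicate number was not a block. With it as a block, PYS2 minus XEN passed (-0.75, adjusted p = 0.0277). END2 minus PYS2 was 0.35 (95% interval -0.51 to 1.22, adjusted p = 0.477). END2 minus XEN was -0.39 (-1.26 to 0.47, adjusted p = 0.432). PYS2 minus XEN was -0.75 (-1.62 to 0.12, adjusted p = 0.165), and it moved to -1.15 (adjusted p = 0.0413) without PYS2 replicate 2 and to -1.13 (adjusted p = 0.048) without XEN replicate 3. The 3 other Fgfr2 probes read 12.3 to 61.6, and of these only 1 was detected, on END2 replicate 1. Which splice forms of the receptor the probes read was not analysed here.

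Fgfr3, a receptor known for restraining bone growth, was present in all lines at signals near the limit. It read 54.1, 72.9 and 25.5 in END2, with no detection on replicate 3. It read 43.5, 67.4 and 76.6 in PYS2 and 55.9, 157.4 and 84.1 in XEN, and was detected on all 6 of those arrays. The level was 6.52 ± 0.249 in XEN, 5.92 ± 0.336 in PYS2 and 5.2 ± 0.548 in END2. END2 minus XEN was -1.32 (adjusted p = 0.00174), with no overlap, and -1.02 (adjusted p = 0.00313) without END2 replicate 3. The END2 mean includes an array without detection and lay near the lowest detected level. PYS2 and XEN overlapped and their difference of -0.6 (95% interval -1.2 to 0) did not pass the test (adjusted p = 0.11), but it did without END2 replicate 3 (adjusted p = 0.0373). The call between END2 and PYS2 (-0.72, adjusted p = 0.0444) was lost without END2 replicate 3, where the difference was -0.42 (adjusted p = 0.144), and without any other array except END2 replicate 2 and PYS2 replicate 1 (adjusted p = 0.0517 to 0.167). The END2 and PYS2 arrays overlapped, and this call passed under 7 of 21 alternative settings. The second Fgfr3 probe was not detected.

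Fgfr4, a receptor that works with the co-receptor beta-Klotho, was present only in PYS2. It read 52.7, 52.2 and 57.5 there and was detected on replicates 1 and 3. It read 25.9, 29.2 and 32 in END2 and 30.8, 79.8 and 39.7 in XEN, with no detection. The PYS2 level of 5.74 ± 0.342 exceeded END2 (4.65 ± 0.169) by at least 1.33-fold, with END2 minus PYS2 at -1.09 (SE 0.196, adjusted p = 0.000621). PYS2 and XEN (5.34 ± 0.133) overlapped, and their difference of 0.4 (95% interval -0.03 to 0.83) did not pass the test (adjusted p = 0.134), but was 0.59 (adjusted p = 0.0363) without PYS2 replicate 2. The fit also called Fgfr4 between END2 and XEN (-0.69, adjusted p = 0.0115, END2 the lower), but neither line gave a detected signal and no fold is given. The XEN arrays had detection p-values between 0.01 and 0.05, and with 0.05 as the threshold Fgfr4 counted as present in XEN.

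Fgfr1, a receptor needed at gastrulation, was not detected by either of its 2 probes, which read 10.9 to 31.8 over the 9 arrays. The gene was not tested, and a low level and poorly reading probes cannot be told apart.

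**Figure D3:**
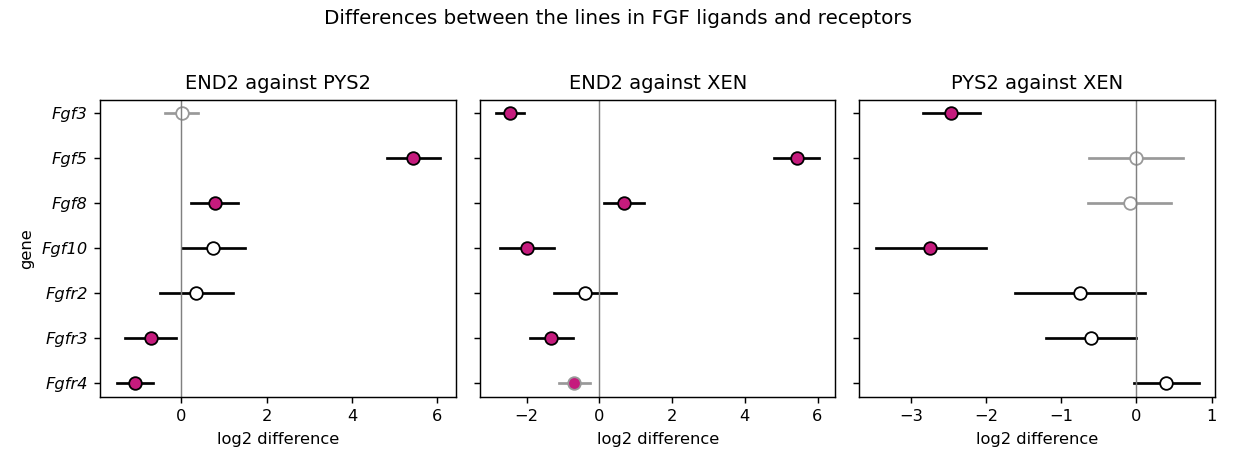
Log2 difference in level between the lines for the 7 FGF genes tested, first line minus second, with 95% intervals (horizontal bars) from the limma model over 9 arrays. Filled points passed the test (adjusted p under 0.05), and gray bars mark genes present in neither line compared. Fgf5 lies farthest from 0, at 5.44 and 5.43, and Fgfr2 crosses 0 in each comparison.

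Between END2 and PYS2, 4 of the 7 tested FGF genes were called, 2 higher (Fgf5 and Fgf8) and 2 lower in END2 (Fgfr3 and Fgfr4), where 55.3% of all tested named genes were called, 26.4% higher and 28.8% lower. Between END2 and XEN, 6 of 7 were called, 2 higher in END2 (Fgf5 and Fgf8) and 4 lower (Fgf3, Fgf10, Fgfr3 and Fgfr4), against 54.2% of all genes, 27.5% higher and 26.7% lower. Between PYS2 and XEN, Fgf3 and Fgf10 were called, both lower in PYS2, against 39.6% of all genes, 21.2% higher and 18.4% lower. Arrays of the lines did not overlap for 4, 5 and 3 of the 7 genes, and over all genes for 61%, 62.4% and 54.1%. The median log2 difference of the 7 genes was 0.35, -0.69 and -0.6 in the same order, and of all genes -0.03, -0.02 and 0.02. With 7 genes these counts were not tested against the shares over the array, and the genes entered the test only if present in a line. The comparisons share the arrays of each line. With the authors' normalized values the differences were smaller, at 2.88 for Fgf5 in END2 against PYS2 and against XEN. For Fgf3 they were -0.82 in END2 and in PYS2 against XEN, and for Fgf10 -0.87 and -1.07. All of these passed the test. The genes called fell from 4 to 3 in END2 against PYS2, without Fgfr3. In END2 against XEN they fell from 6 to 4, without Fgf8 and Fgfr4.

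The FGF genes varied in how close other genes came to their pattern over the 9 arrays. Fgf5 rose and fell with Nnmt (Pearson r = 1.000), Bdnf (r = 0.999) and Ptx3 (r = 0.999), the closest of 9353 genes compared. For Fgf3 the closest were Hapln3 (r = 0.996), Mfap5 and Slc51a (r = 0.993 each). Fgf8 was closest to Fam171b (r = 0.993), Cxcl15 and Kcnd2 (r = 0.992 each). Fgf10 came closest to Ubap2l and Ly6e (r = 0.976 each) and to Slc24a1 (r = 0.973). Among the receptors, Fgfr3 was closest to Prss35 (r = 0.957), Rpp25 (r = 0.953) and Sipa1l1 (r = 0.945), and Fgfr4 to Prune1 (r = 0.975), Tmem229b (r = 0.974) and Map3k3 (r = 0.973). Fgfr2 had the loosest match, to Taf9 (r = 0.925), Nasp (r = 0.890) and Selenof (r = 0.876). These are descriptions over 9 arrays that fall into 3 lines, so that any gene high in a single line scores well.

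The 16 other FGF ligands on the array gave few signals, as only 5 were present in a line. Of these, 4 were present in END2 (Fgf9, Fgf18, Fgf21 and Fgf23), 1 in PYS2 (Fgf22) and none in XEN. Fgf18, a ligand of skeletal growth, read 151, 148.4 and 109.2 in END2 and no more than 28.8 on any other array. END2 exceeded PYS2 by at least 2.45-fold (adjusted p = 8.37e-08) and XEN by at least 2.53-fold (adjusted p = 1.32e-07). Fgf21, a metabolic hormone, read 64.6, 133.8 and 47.7 in END2, which exceeded PYS2 by at least 1.25-fold (adjusted p = 0.00415) and XEN by at least 1.29-fold (adjusted p = 0.00385). Fgf9 read 102.6, 132.5 and 34.5 in END2, with no detection on replicate 3, and END2 exceeded PYS2 by at least 1.27-fold (adjusted p = 0.00596) and XEN by at least 1.32-fold (adjusted p = 0.0134). The END2 and XEN arrays overlapped for this Fgf9 probe, and that call was lost without END2 replicate 1 or 2 (adjusted p = 0.0547 and 0.0573). The other tested Fgf9 probe was called too, at 1.06 against each line (adjusted p = 0.0208 for PYS2 and 0.0213 for XEN). Its END2 mean lay below the faintest detected levels of the other lines, so no fold is given, and its END2 and PYS2 arrays overlapped. Fgf22 read 69.5, 136.3 and 81.3 in PYS2, which exceeded END2 by at least 2.37-fold (adjusted p = 7.28e-05) and XEN by at least 2.07-fold (adjusted p = 9.16e-05). Fgf23 did not differ beyond its spread in any comparison, with END2 minus PYS2 at 0.02 (95% interval -0.4 to 0.43). Of the 5 tested, 3 were called higher and 1 lower in END2 than in PYS2, 3 higher than in XEN, and 1 between PYS2 and XEN, where 55.3%, 54.2% and 39.6% of all genes were called. The medians were 1.11, 1.12 and -0.06. A ligand was tested only if present in a line, and the 4 present in END2 were present in no other line. These counts and medians therefore follow in part from the filter.

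Fgf5, Fgf8, Fgf9, Fgf18 and Fgf21 were thus the ligands called higher in END2 than in both other lines. Each had entered the test by its presence in END2 alone. Markers of mesenchymal cells and fibroblasts were also higher in END2, while Fgf10, a ligand of mesenchyme, was highest in XEN (7.64 against 5.66 in END2). Of 8 such markers 7 were present in END2, and Twist1 alone in PYS2 and in XEN. Their summed signal was 2780 to 3500 on the END2 arrays, 260 to 344 in PYS2 and 228 to 417 in XEN. Col1a1, the main chain of type I collagen, read 1625.6 to 1893.8 in END2, the largest part of that sum, and was not detected elsewhere. Col3a1 read 348.2 to 953.8 and Twist1 437 to 586.6 in END2. The other markers present there lay near the limit of detection. Col1a2 read 30.5 to 89.4, with no detection on replicate 3. S100a4 read 53.6 to 81, Thy1 64.7 to 67.5 and Prrx1 60.7 to 116.2. Pdgfrb was not present in any line. In RNA from whole cultures, a larger share of one kind of cell and more RNA per cell cannot be told apart. Whether the ligand values are linked to these markers was not tested.

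Among the proteins that act beside the FGF receptors at the cell surface, Klb was found in PYS2 and XEN, Flrt2 in END2 and XEN, and Fgfrl1 in END2 and PYS2. Of 9 co-receptors and binding proteins 7 were tested, and 5, 5 and 3 were called in END2 against PYS2, END2 against XEN and PYS2 against XEN, beside 55.3%, 54.2% and 39.6% of all genes. Klb, beta-Klotho, the co-receptor for Fgf21 and Fgf15, read 729.2, 1270.4 and 899.5 in PYS2 and 812.6, 2125.9 and 864.4 in XEN. In END2 it read 27, 15.8 and 17.5, with no detection. PYS2 exceeded END2 by at least 25.2-fold (adjusted p = 2.97e-10) and XEN exceeded it by at least 29.2-fold (adjusted p = 2.23e-10). END2, where Fgf21 was present, was the line without detected Klb. Flrt2, a membrane protein of a family that binds FGF receptors, read 313.3 to 315.9 in END2 and 210 to 639.9 in XEN but 14.1 to 18.2 in PYS2. Against PYS2, the excess was at least 5.97-fold for END2 (adjusted p = 1.22e-08) and at least 7.27-fold for XEN (adjusted p = 3.02e-08). For its relative Flrt3, END2 was the low line, exceeded by PYS2 4.28-fold (adjusted p = 5.17e-06) and by XEN 3.69-fold (adjusted p = 1.4e-05). Fgfrl1, a receptor without a kinase, was not detected in XEN, which END2 exceeded by at least 2.25-fold (adjusted p = 3.83e-06) and PYS2 by at least 1.99-fold (adjusted p = 2.08e-05). Il17rd, a membrane inhibitor of FGF signals, was highest in END2, 2.66-fold over PYS2 (adjusted p = 2.85e-05) and 1.8-fold over XEN (adjusted p = 0.00145). The median difference over the 7 genes was 0.36, 0.57 and 0.04.

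Enzymes of heparan sulfate, which FGFs need to bind their receptors, were present almost throughout. Of 11 on the array, 11 were present in END2 and XEN and 10 in PYS2, and 7, 6 and 7 were called in the 3 comparisons (over all genes 55.3%, 54.2% and 39.6%), with medians of -0.08, -0.15 and -0.62. Hs6st2, which adds 6-O-sulfate, was the enzyme missing in PYS2. It read 715.5, 895.1 and 771.7 in END2, 462.8, 1386.7 and 498 in XEN and 21.2 to 23.6 in PYS2. Against PYS2, END2 was in excess by at least 15.4-fold (adjusted p = 1.22e-09) and XEN by at least 15.1-fold (adjusted p = 7.57e-09). Sulf1 and Sulf2, which remove 6-O-sulfate outside the cell, ran in opposite directions. Sulf1 was highest in END2, 5.96-fold over PYS2 (adjusted p = 1.12e-06) and 6.48-fold over XEN (adjusted p = 8.53e-07). Sulf2 was lowest in END2, with PYS2 4.84-fold above it (adjusted p = 8.65e-07) and XEN 4.7-fold above it (adjusted p = 1.17e-06). Hs3st1, which adds 3-O-sulfate, read 514.3 to 594.6 in END2, 2668 to 3118.9 in PYS2 and 7132.9 to 14264 in XEN, so that END2 lay 6.11-fold below PYS2 and 17.2-fold below XEN (adjusted p = 1.37e-07 and 3.53e-09). PYS2 lay 2.81-fold below XEN (adjusted p = 4.2e-05).

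**Figure D4:**
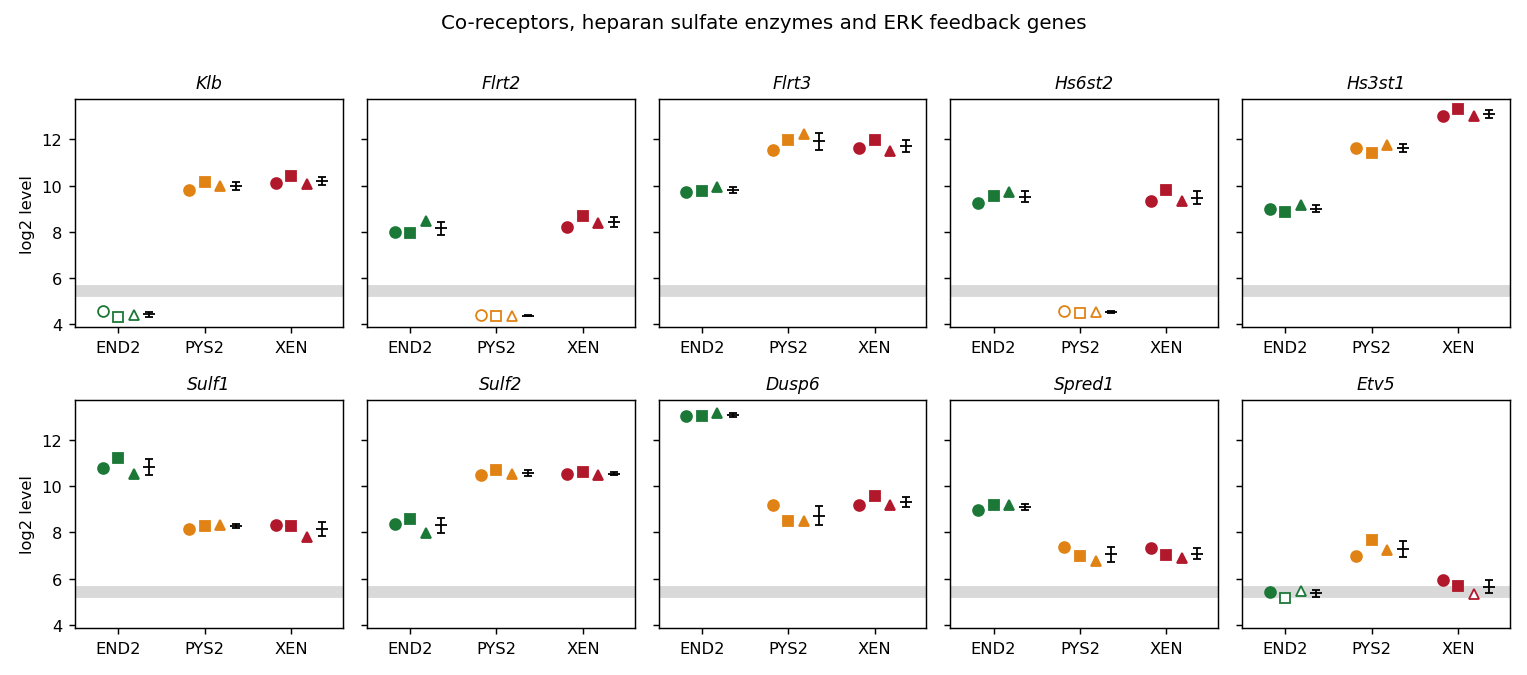
Log2 level on each array of 10 genes that act with FGF receptors or are switched on by them. Circles, squares and triangles are replicates 1, 2 and 3, filled where detected, black marks are the mean with SD (n = 3), and the gray band spans the lowest detected levels (5.21 to 5.64). Klb is below the band in END2 alone, Flrt2 and Hs6st2 in PYS2 alone, and Dusp6 is highest in END2. Levels of different genes are not to be compared.

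Among the proteins that carry the signal from receptor to ERK, 14 of 20 listed genes were on the array and 10 were tested. In END2 against PYS2, 5 were called higher and 2 lower, in END2 against XEN 3 and 2, and in PYS2 against XEN 2 and 1, where 55.3%, 54.2% and 39.6% of all genes were called. The medians were 0.23, 0.27 and 0.19. Gab1, a docking protein, was lowest in XEN, which END2 exceeded 4.99-fold (adjusted p = 3.77e-06) and PYS2 2.82-fold (adjusted p = 0.00026). Frs3, a docking protein of FGF receptors, read 164.9 to 191.8 in PYS2, 46.4 to 57.5 in END2 and 41.7 to 95.7 in XEN. It was detected on 1 END2 array, and END2 minus PYS2 was -2.25 on the log2 scale (adjusted p = 7.43e-07). PYS2 exceeded XEN 3.32-fold (adjusted p = 1.82e-05). The Ras protein Nras in END2 stood 2.26-fold above PYS2 (adjusted p = 0.000199) by its brightest probe, while its 2 other tested probes, near the limit of detection, did not pass. The adaptor Shc1 in END2 stood 2.18-fold above XEN (adjusted p = 7.46e-05). The 2 kinases directly upstream of ERK differed in direction. Map2k1 was 1.73-fold lower in END2 against XEN (adjusted p = 0.00351). Map2k2 was called higher in END2 by its brighter probe, by 0.44 against PYS2 (adjusted p = 0.0219) and 0.45 against XEN (adjusted p = 0.0207), while its other probe gave 0.49 and -0.48 and did not pass.

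Among genes that ERK switches on, Dusp6 and Spred1 were higher in END2 than in both other lines. Of 12 listed, 10 were on the array and 7 were tested, and END2 against PYS2 gave 2 higher and 2 lower, END2 against XEN 3 and 1, and PYS2 against XEN 2 and 1, beside shares of 55.3%, 54.2% and 39.6% over all genes. The medians were 0.52, 0.99 and 0.46. Dusp6, the phosphatase that switches ERK off, read 8371.4, 8347.2 and 8367.1 in END2, 462, 409.1 and 327 in PYS2 and 417.9, 1188.4 and 457.1 in XEN. END2 exceeded PYS2 20.3-fold (adjusted p = 9.86e-09) and XEN 13.4-fold (adjusted p = 4.4e-08). The 2 other tested Dusp6 probes had the same direction. Of these, 1 was detected on 1 PYS2 array, and by it END2 exceeded XEN 12.1-fold (adjusted p = 6.44e-07). The other was detected on no PYS2 or XEN array, and END2 stood at least 3.01-fold above PYS2 (adjusted p = 9.46e-06) and at least 3.11-fold above XEN (adjusted p = 1.01e-05). Spred1, an inhibitor of Ras signals, was also highest in END2, 4.18-fold over PYS2 (adjusted p = 3.79e-06) and 4.1-fold over XEN (adjusted p = 4.78e-06). Dusp4 was called higher in END2 than in XEN (0.99, adjusted p = 0.00896) but not than in PYS2 (0.52, adjusted p = 0.123). Another Dusp4 probe was called against both, by 2.8 for PYS2 (adjusted p = 5.69e-06) and 1.51 for XEN (adjusted p = 0.000796). The last was called against XEN alone (1.04, adjusted p = 0.0149). Against PYS2 the ETS factors Etv4 and Etv5 ran the other way. Etv5 read 98.2, 232.3 and 142 in PYS2 and 59.5, 50.4 and 46.1 in END2, where 1 array detected it, and END2 minus PYS2 was -1.94 on the log2 scale (adjusted p = 1.41e-05). In XEN, where 2 arrays detected it, Etv5 lay below PYS2 as well (PYS2 minus XEN 1.64, adjusted p = 0.000119). For Etv4, END2 minus PYS2 was -1.56 (adjusted p = 0.0156), and its END2 arrays spread from 260.5 to 1017.8. This difference was -0.94 without END2 replicate 2 and -2.19 without END2 replicate 3, and the call was lost without PYS2 replicate 1 (adjusted p = 0.0552). END2 minus XEN did not pass for Etv4 (-0.19, adjusted p = 0.757) or Etv5 (-0.3, adjusted p = 0.276). Egr1, an early response gene, had a log2 difference of 0.71 between END2 and PYS2 (95% interval -1.18 to 2.61) and the inhibitor Spry4 one of -0.26, and neither passed. Spry4 was called lower in END2 than in XEN, by a difference of -0.68 (adjusted p = 0.0468). It read only 53.8 to 70 in END2, and this call passed under 10 of 21 alternative settings.

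Of 4 splicing factors that choose between the epithelial and mesenchymal forms of Fgfr2, 1 was called higher and 1 lower in END2 than in PYS2, 1 higher and 2 lower than in XEN, and 2 lower in PYS2 than in XEN, where 55.3%, 54.2% and 39.6% of all genes were called in either direction. Esrp2, which favours the epithelial form, was highest in XEN by its brighter probe, 3.67-fold above END2 (adjusted p = 4.5e-06) and 1.96-fold above PYS2 (adjusted p = 0.00141). The other Esrp2 probe, detected on all 9 arrays, did not pass, with differences of -0.31 for END2 minus XEN (adjusted p = 0.0907) and -0.02 for PYS2 minus XEN (adjusted p = 0.934), so that the probes disagree. Its relative Esrp1 was present in XEN alone, at least 1.35-fold above END2 (adjusted p = 6.97e-05) and at least 1.15-fold above PYS2 (adjusted p = 0.00171). Esrp1 read only 41.7 to 94.3 in XEN, near the limit, and was detected on 2 of the arrays. The call against PYS2 was lost with no normalization between arrays (adjusted p = 0.111). Rbfox2 was highest in END2, 2.11-fold over PYS2 (adjusted p = 0.00121) and 2.53-fold over XEN (adjusted p = 0.000268). Ptbp1 did not pass by its brightest probe, with END2 minus PYS2 at 0.21 (95% interval -0.14 to 0.56), but some of its other probes were called between these lines, with END2 higher by up to 0.8 (adjusted p = 0.0106).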

How the data were processed

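Total RNA of END2, PYS2 and XEN cells was hybridised to 9 Illumina MouseWG-6 arrays. In the scanner table that the authors deposited, the signal of each probe is a linear intensity from BeadStudio with no normalization between arrays. No source used here says whether BeadStudio removed a background. A detection score, deposited as a fraction from 0 to 1, rises with the signal, and its complement served as the detection p-value. The number of beads is given too. The authors' second table, deposited on a log2 scale after lumiExpresso of lumi (version not stated in the sources used here), was an alternative. A further 24 signal columns carry no sample of this series and were not used.

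Background correction and quantile normalization were done with neqc (offset 16, detection p-values in place of control probes) of limma 3.58.1 in R 4.3.3. Of 45281 probes, 34885 had 1 gene symbol in the platform annotation, 18 had several and 10378 had none. Probes detected at p under 0.01 on at least 2 of 3 arrays of a line were tested, 16299 probes and 9354 named genes, among them 8 FGF probes of 7 genes. A gene was represented by its tested probe with the highest mean level. All comparisons came from 1 limma model over the 9 arrays (lmFit and eBayes) with Benjamini-Hochberg adjustment over all tested probes, without the replicate number as a block, and a threshold of 0.05. The script was tested on simulated data. The FGF members, the further gene lists and the marker lists were chosen with earlier results of these data known. All FGF probes are named. From each further list large differences that passed are named, though not all of them, and other members were added after their values were seen. For each present member the 3 genes with the highest Pearson correlation over the arrays are named. The alternatives were other background corrections, normalizations, filters on dim probes, spread estimates and probe rules, the replicate number as a block, a fit of 2 lines alone, and each array left out in turn. Arrays have no sequencing depth, and their number limits the precision. Promoters came from RefSeq (GRCm38.p6), in which 8 of the 10 members were matched. No coordinates of the array probes are given.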

Additional observations from a re-analysis of the deposited data

How the results depend on the processing

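Of the single-gene differences of FGF members, 309 values under alternative settings kept their direction and their side of the threshold, 33 no longer passed, 11 newly passed and 0 reversed. Fgf5 against both lines and Fgf3 and Fgf10 against XEN passed under all 21 alternatives, with log2 differences of 2.88 to 5.71 for Fgf5 in both comparisons, -2.63 to -0.82 and -2.57 to -0.82 for Fgf3, and -2.34 to -0.87 and -3.09 to -1.07 for Fgf10. The values nearest 0 came with the authors' normalized values, and the cause was not tested. Fgf8 passed under 13 of 20 alternatives against PYS2 and 9 of 20 against XEN.

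FGF genes called in END2 against PYS2 fell from 4 to 2 with no normalization between arrays, with no filter on dim probes and with detection on all 3 arrays of a line, where Fgf8 and Fgfr4 were not tested. In END2 against XEN they fell from 6 to 3 with no normalization between arrays. With 1 array left out the counts were 2 to 4 in END2 against PYS2 (2 without END2 replicate 1, PYS2 replicate 2 or PYS2 replicate 3), 5 to 6 in END2 against XEN and 2 to 4 in PYS2 against XEN (4 without PYS2 replicate 2, which added Fgfr2 and Fgfr4). FGF genes present in END2 fell from 5 to 3 with detection on all 3 arrays.

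Correlations of the deviations from the line mean between same-numbered arrays of different lines had both signs, from -0.28 to 0.31. Differently numbered arrays were not set beside them, so these values do not settle whether the numbers pair the samples. With the replicate block the counts were 3, 6 and 3. Fgfr3 was then not called between END2 and PYS2 (adjusted p = 0.0632), and Fgfr2 was called between PYS2 and XEN (-0.75, adjusted p = 0.0277).

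Of 74 called differences of the other listed genes, 47 kept their side under every alternative and 27 did not. Map2k2 in END2 against XEN reversed, to -0.01 (adjusted p = 0.959), with the mean of a gene's probes.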
